A study of Mus musculus with 15 samples.

Results

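The nuclear-encoded subunits of mitochondrial complex I were followed as 32 named Nduf genes across 15 cerebellum libraries of mice. They are 32 of the 55488 genes in the deposited count table, and all 32 passed the filter on low counts that left 24990 genes for testing. Their symbols were matched to the Ensembl identifiers of the table. The list leaves out the cluster-bearing subunits Ndufs1, Ndufs8 and Ndufv1, although Ndufs7 and Ndufv2, which also bind an iron-sulphur cluster, are members. By the place of the protein in the enzyme, 12 members belong to the matrix arm, 9 to the proximal membrane arm and 10 to the distal membrane arm, and Ndufab1 is the acyl carrier protein found in both arms.

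The mice compared were of 4 kinds. The mPPL-001 group (n = 5) was YG8JR mice that had received Sca1+ stem and progenitor cells of YG8JR donors, edited by electroporation of Cas9 protein with a guide RNA pair. The mock group (n = 4) was YG8JR mice given such cells electroporated with the same guides but no Cas9. Recipients of both kinds were 2.5 to 3 months old, were irradiated with 7 Gy before infusion and drank antibiotics for 1 month. The YG8JR group (n = 3) had no transplant, and the WT group (n = 3) was wild type. YG8JR is a mouse model of Friedreich ataxia, so the mPPL-001, mock and YG8JR groups share that genotype and only WT lacks it. The edit was made in blood-forming cells before transplant, and what was measured was bulk cerebellum, in which donor-derived and host cells were not separated. The label for tissue age is 6 months post-transplant for every library, untreated ones included. The strain of the WT mice is not given in the sources used here.

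Complex I, or NADH:ubiquinone oxidoreductase, is the entry point of electrons from NADH into the respiratory chain. Its matrix arm carries electrons along a row of iron-sulphur clusters to ubiquinone, and its membrane arm pumps protons. A core of catalytic subunits, encoded partly in the nucleus and partly in mitochondrial DNA, is surrounded by accessory subunits that serve its assembly and stability, and most of the members here are accessory. Friedreich ataxia impairs the making of iron-sulphur clusters, on which the matrix arm depends. Cerebellar neurons, Purkinje cells in particular, have a high demand for oxidative phosphorylation.

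The promoters of the members were taken from RefSeq (GRCm38.p6, 250 bases before to 50 after the annotated start), which holds 30 of the 32 members, all but Ndufa2 and Ndufb9. They were searched on both strands for letters bound by known regulators of respiratory genes. The letters GCGCANGCG, for the nuclear respiratory factor NRF1, were in 8 of 30 members (26.7%) and in 7.03% of 27025 genes in the table. The letters AAGATGGC, for YY1, were in 7 of 30 (23.3%) and in 3.19% of all genes. In the members every copy lay within the 50 bases after the annotated start. The letters contain ATG, and whether they mark a translation start there was not tested. CCGGAAG, for GABP and other ETS factors, was in 3 of 30 (10%) and in 9.93% of all genes, and TCAAGGTCA, for the oestrogen-related receptors, was in 0 of 30 and in 0.466% of all genes. GGGCGG (Sp1) was in 50% of members and 38.2% of all genes, CCAAT in 30% and 41.1%, and TATAAA in 13.3% and 15.7%. Shares count genes with at least 1 match in any listed promoter, and the NRF1 letters can match both strands at one place. The median share of G and C was 59.3% in member promoters and 52.7% in all promoters, and its part in these shares was not tested. A match is a description of the letters and not a site of binding. Promoters are shown for Ndufs4, the member with the smallest p between batches, for Ndufa3, with the smallest p between YG8JR and WT, for Ndufb4, with the smallest p of mock against WT, for Ndufs6, which holds both motifs, and for Ndufb2, which ran against the other members. Capitals mark the letters of NRF1, YY1 or ETS. Ndufs4 lies at chr13:114388045-114388344 (minus strand), Ndufs6 at chr13:73328433-73328732 (minus strand), Ndufa3 at chr7:3617123-3617422 (plus strand), Ndufb4 at chr16:37654319-37654618 (minus strand) and Ndufb2 at chr6:39592315-39592614 (plus strand).
Ndufs4: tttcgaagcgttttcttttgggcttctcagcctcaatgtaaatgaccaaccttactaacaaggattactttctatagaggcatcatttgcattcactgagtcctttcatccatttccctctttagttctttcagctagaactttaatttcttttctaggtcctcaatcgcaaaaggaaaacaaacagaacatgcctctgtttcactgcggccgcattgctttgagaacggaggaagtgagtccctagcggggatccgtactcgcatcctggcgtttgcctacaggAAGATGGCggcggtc
Ndufs6: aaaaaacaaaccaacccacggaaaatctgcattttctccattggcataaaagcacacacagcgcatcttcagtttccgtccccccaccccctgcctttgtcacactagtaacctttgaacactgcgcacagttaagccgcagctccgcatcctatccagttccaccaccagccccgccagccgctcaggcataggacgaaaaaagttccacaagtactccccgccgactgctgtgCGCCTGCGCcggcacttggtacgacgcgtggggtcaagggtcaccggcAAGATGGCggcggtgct
Ndufa3: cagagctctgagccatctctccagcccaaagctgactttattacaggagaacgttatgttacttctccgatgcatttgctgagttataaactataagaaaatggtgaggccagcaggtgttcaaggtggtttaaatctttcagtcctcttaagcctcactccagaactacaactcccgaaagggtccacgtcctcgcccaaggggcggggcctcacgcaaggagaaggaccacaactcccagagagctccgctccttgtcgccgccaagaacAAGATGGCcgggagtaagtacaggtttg
Ndufb4: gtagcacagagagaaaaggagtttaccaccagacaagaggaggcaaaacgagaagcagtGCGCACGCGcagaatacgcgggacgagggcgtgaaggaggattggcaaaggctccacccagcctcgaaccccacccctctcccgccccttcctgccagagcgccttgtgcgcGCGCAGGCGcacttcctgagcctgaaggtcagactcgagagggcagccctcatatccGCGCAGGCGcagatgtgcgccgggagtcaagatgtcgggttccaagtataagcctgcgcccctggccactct
Ndufb2: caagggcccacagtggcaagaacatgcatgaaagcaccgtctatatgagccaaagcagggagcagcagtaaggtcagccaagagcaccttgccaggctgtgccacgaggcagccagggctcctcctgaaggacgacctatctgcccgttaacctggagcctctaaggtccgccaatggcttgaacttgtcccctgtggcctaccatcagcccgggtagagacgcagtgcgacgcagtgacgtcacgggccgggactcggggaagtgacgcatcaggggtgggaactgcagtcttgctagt
Ndufs4, Ndufs6 and Ndufa3 each hold the YY1 letters once, Ndufs6 and Ndufb4 hold the NRF1 letters, Ndufb4 at 3 places, and the window of Ndufb2 holds none of these.

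Libraries held 16847875 to 38760543 counts, and WT replicate 2 had the fewest. Batches are those of the labels, with 8 libraries in batch A and 7 in batch B, and each group has libraries in both. All 14 granule neuron markers and all 11 Purkinje cell markers were called lower in batch A than in batch B, and 10 of 12 brainstem markers were called higher. In that comparison 32.9% of all genes were called. Gabra6, of granule neurons, spanned 0.0586 to 71.9 CPM in batch A, against 206 to 504 CPM in batch B, so that this defining transcript of the labelled tissue was nearly absent from part of batch A. CPM are counts scaled to a common library size. Y-linked transcripts were nearly absent from WT replicates 1 and 2, from YG8JR replicate 3 and from mock replicates 1 and 4. The summed level of 8 choroid plexus markers ran from 19.3 to 4806 CPM. The library labelled WT replicate 3, the only WT library of batch A, did not match its group's label in a check of genotype, and the members' comparisons with WT are therefore given with and without it. Comparisons with WT within batch A, and the difference between batches for YG8JR against WT, rest on it and cannot be given without it. In bulk tissue, fewer cells of a type and less RNA per cell cannot be told apart.

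Levels between genes were compared as CPM per kilobase of exon. Ndufc2, of the proximal arm, stood highest of the 32 with 57.6 ± 13.5 CPM per kilobase (SD, n = 15), and Ndufb2, of the distal arm, lowest with 4.24 ± 0.71. In the matrix arm Ndufv2, which binds an iron-sulphur cluster, was highest with 40.5 ± 7.73 and Ndufv3, a small subunit of its NADH-oxidising module, lowest with 12.0 ± 2.1. In the proximal arm Ndufc1 was lowest with 14.97 ± 2.79, and in the distal arm Ndufb10 was highest with 39.4 CPM per kilobase. Ndufab1 stood at 4.29 CPM per kilobase. Neighbours in this order overlapped in their ranges over the libraries, except Ndufb7 (3.08 to 5.55) and Ndufb5 (5.59 to 12.5). The lengths count every annotated exon, and Ndufab1 and Ndufb2 have the longest exon sequence of the 32 (6883 and 5628 bases). With the longest coding transcript as the length, Ndufa6 took the first place with 80.3 CPM per kilobase in place of Ndufc2 (63.6), and Ndufb2 stayed last with 5.45.

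**Figure D1:**
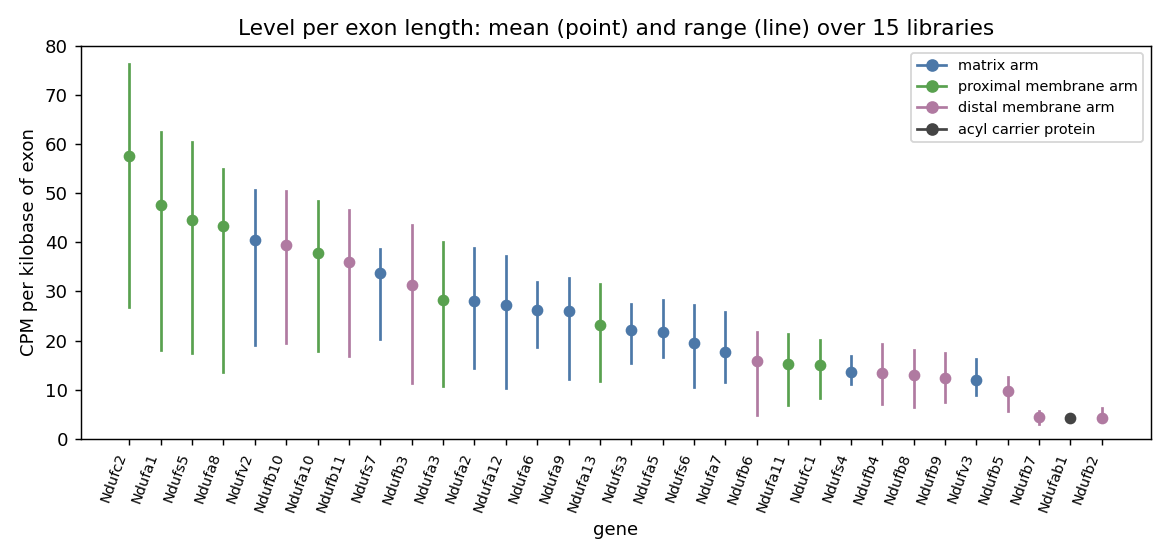
Level of each member as CPM per kilobase of exon, mean (point) and lowest to highest (line) over 15 libraries, coloured by arm and ordered by mean. Ndufc2 stands highest at 57.6 and Ndufb2 lowest at 4.24, and most neighbouring genes overlap.

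Edited and mock transplants were compared to show what the edit did beyond the transplant. At a threshold of 0.05 on the adjusted p, edgeR called no member different, and of all 24990 genes 0 (0%) were called. Unadjusted, 0 members and 534 genes had a p under 0.05, and DESeq2 and voom called 0 members and 0% of all genes as well. Fold changes were small and mostly below zero, with a median log2 fold change of -0.13 over the 32 and 29 negative, beside a median of 0.04 over all genes. The median was -0.06 without mock replicate 3 (7 of 32 positive). It was -0.26 with the presence of Y-linked transcripts (over 10 CPM) in the model. The 95% intervals of the 32 log2 fold changes lay between -0.83 and 0.45, and none reached a 2-fold difference.

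Ndufb4, a subunit of the distal arm, had the smallest p. It stood at 17.8, 31.9, 27.3, 20.4 and 26.5 CPM in mPPL-001 replicates 1 to 5 and at 33.5, 23.4, 30.6 and 37.1 CPM in mock replicates 1 to 4 (log2 fold change -0.30, SE 0.18, edgeR adjusted p = 0.999). The groups overlapped, and the lowest mPPL-001 values were those of replicates 1 and 4. Ndufs6, a zinc-binding subunit at the base of the NADH module, stood at 16.6, 17.5, 17.1, 15.04 and 19.7 CPM in mPPL-001 and at 15.8, 18.9, 24.5 and 21.2 CPM in mock (log2 fold change -0.23, SE 0.17). Its highest library was mock replicate 3, which was the highest of all 15 libraries for 16 of the 32 members. Ndufa12, a matrix-arm subunit related to the assembly factor Ndufaf2, stood at 32.4, 41.7, 50.5, 33.8 and 45.1 CPM in mPPL-001 and at 46.1, 40.6, 56.6 and 58.5 CPM in mock (log2 fold change -0.31, SE 0.23). These groups overlapped too. By batch the median of the members was -0.26 in batch A (3 mPPL-001 and 2 mock libraries) and 0.06 in batch B (2 and 2), where 25 of 32 members were positive and 24 had turned their sign. In batch B, Y-linked transcripts summed to 1.63 and 1.00 CPM in mock and to 251 and 245 CPM in mPPL-001. The edit and Y-linked status therefore cannot be told apart in that batch. All libraries of both groups in batch A had Y-linked transcripts. The difference between batches was tested as an interaction, in which 0 members and 0% of all genes were called (0 members and 808 genes with an unadjusted p under 0.05). In batch A, mPPL-001 replicates 1 and 4 had summed member levels of 1074 and 1035 CPM, the lowest of all libraries outside WT replicate 2. Their mean score of nuclear noncoding RNAs was 1.59 and 0.79 (log2, above the median library), the highest of all libraries, and the part of this in the result was not tested. Among the marker lists of this comparison, all 11 Purkinje cell markers had positive log2 fold changes (median 0.90) and so did 12 of 14 granule neuron markers (0.23). All 8 choroid plexus markers were negative (-1.68), as were 10 of 12 brainstem markers (-0.65) and all 8 microglial markers (-0.24). The 4 Y-linked transcripts were positive (2.39), and no gene of these lists was called. Their part in the values of the members was not tested.

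**Figure D2:**
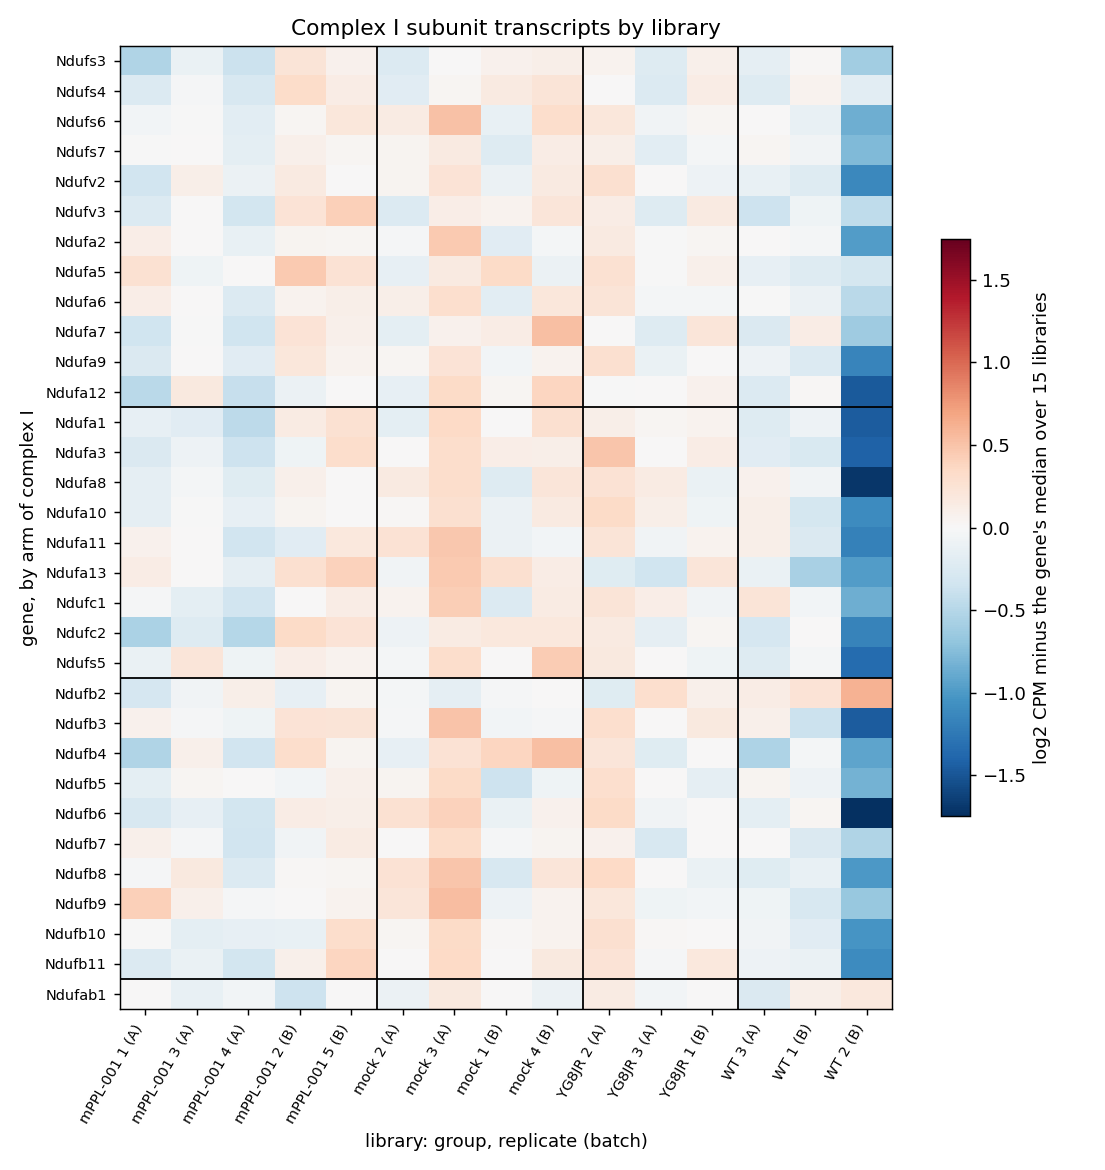
Deviation of each member (rows, by arm) from its own median over 15 libraries, in log2 CPM, for each library (columns, by group and then batch). WT replicate 2 is low for 30 of 32 members, Ndufb2 and Ndufab1 being the exceptions, and mock replicate 3 is highest for 16.

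Edited transplants were also set against untreated YG8JR mice. No member was called (0 with an unadjusted p under 0.05, and 0 by DESeq2 and by voom), against 0.032% of all genes by edgeR, 0.088% by DESeq2 and 0.04% by voom, and the median log2 fold change was -0.09 with 25 of 32 negative (0.06 over all genes). It was -0.0095 without YG8JR replicate 2 (15 of 32 positive) and -0.04 without mPPL-001 replicate 4 (13 positive). Within batch A it was -0.18 (3 positive), and within batch B it was 0.11, with 27 positive and 20 signs turned. Batch B holds only 1 YG8JR library, so that its value rests on that library. Ndufa3, a small subunit of the proximal membrane arm, stood at 24.5, 27.9, 27.7, 22.9 and 36.5 CPM in mPPL-001 and at 32.1, 41.1 and 29.4 CPM in YG8JR (log2 fold change -0.29, SE 0.23, edgeR adjusted p = 0.966). Ndufa13, known as GRIM-19, which sits where the arms meet, stood at 31.4, 34.9, 28.7, 25.8 and 38.0 CPM in mPPL-001 and at 33.2, 24.7 and 22.5 CPM in YG8JR (log2 fold change 0.24, SE 0.20). Ndufab1, the acyl carrier protein of mitochondria, which binds LYR-motif subunits and also serves iron-sulphur cluster assembly, stood at 30.1, 23.2, 27.5, 29.0 and 29.9 CPM in mPPL-001 and at 30.1, 33.2 and 28.9 CPM in YG8JR (log2 fold change -0.14, SE 0.13). The groups overlapped in all of these. Beside them, Purkinje cell markers had a median of 0.66 (11 of 11 positive) and microglial markers one of -0.64 (8 of 8 negative), with 0 called in either list, and their part was not tested.

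What irradiation and transplant did without the edit was asked by setting mock transplants against untreated YG8JR mice. Here too 0 members were called (0 unadjusted, 0 by DESeq2 and by voom), against 0.036% of all genes by edgeR, 0.06% by DESeq2 and 0.04% by voom, and the median log2 fold change was 0.04 with 23 of 32 positive (0.01 over all genes). It was -0.02 without mock replicate 3 (13 positive), 0.12 without YG8JR replicate 2 (31 positive) and -0.0014 without YG8JR replicate 3 (16 positive). With each of the other libraries of these groups left out it was 0.02 to 0.09. Within batch A it was 0.05, and within batch B 0.03 with 8 signs turned. Batch B holds only 1 YG8JR library, in which Y-linked transcripts summed to 253 CPM, against 1.63 and 1.00 CPM in its mock libraries. Transplant and Y-linked status therefore cannot be told apart in that batch. With all libraries, all 8 choroid plexus markers were positive in mock against YG8JR (median 2.46, 0 called), and their part was not tested. Ndufa13 stood at 34.9, 27.5, 39.5 and 31.5 CPM in mock and at 33.2, 24.7 and 22.5 CPM in YG8JR (log2 fold change 0.31, SE 0.21, edgeR adjusted p = 1). Ndufb9, an LYR-motif subunit bound by Ndufab1, stood at 11.6, 14.3, 18.0 and 12.9 CPM in mock and at 11.9, 14.2 and 11.7 CPM in YG8JR (log2 fold change 0.20, SE 0.16). Ndufb7, on the side facing the space between the membranes, stood at 19.8, 20.1, 25.1 and 20.8 CPM in mock and at 20.1, 21.2 and 16.6 CPM in YG8JR (log2 fold change 0.16, SE 0.16). In each of these the groups overlapped and mock replicate 3 was the highest mock library. These comparisons share libraries with the edited one, so their values are not independent of it. The differences between batches in both comparisons with YG8JR were tested as well, and 0 members and 0% of all genes were called in either (0 members, and 1434 and 295 genes, with an unadjusted p under 0.05).

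How the members stood in the disease model was asked by setting untreated YG8JR mice against WT. No member passed (edgeR), and 31 of 32 log2 fold changes were positive with a median of 0.42, beside -0.04 over all genes. Unadjusted, 6 members had a p under 0.05 (18.8%), beside 25.3% of all genes, and 0 were called by DESeq2 and by voom. Of all genes edgeR called 0.144%, DESeq2 8.86% and voom 6.24%. With voom, which weights the libraries, the median of the members was 0.17. By arm the median was 0.31 for the matrix arm (12 of 12 positive), 0.43 for the proximal arm (9 of 9) and 0.43 for the distal arm (9 of 10). Ndufb2 was the member below zero, at -0.23 (SE 0.16), and Ndufab1 stood at 0.01 (SE 0.15).

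Ndufa3 had the smallest p. It stood at 32.1, 41.1 and 29.4 CPM in YG8JR and at 24.4, 11.1 and 25.7 CPM in WT replicates 1 to 3 (log2 fold change 0.73, SE 0.26, edgeR adjusted p = 0.141). The groups did not overlap, and WT replicate 2 was far below the other WT libraries. Without it the log2 fold change was 0.51. Ndufv3 stood at 43.3, 42.3 and 33.2 CPM in YG8JR and at 36.8, 28.3 and 29.97 CPM in WT (log2 fold change 0.41, SE 0.16, adjusted p = 0.157), and Ndufb4 at 25.7, 29.7 and 22.3 CPM in YG8JR and at 25.1, 13.6 and 17.7 CPM in WT (log2 fold change 0.56, SE 0.23, adjusted p = 0.165). Both groups overlapped in these genes. WT replicate 2 was the lowest library in both genes. Among the members highest or lowest per length, Ndufv2 stood at 84.0, 109 and 89.5 CPM in YG8JR and at 76.5, 41.0 and 81.9 CPM in WT. Ndufb10, which faces the space between the membranes, stood at 48.4, 59.1 and 49.0 CPM in YG8JR and at 42.4, 23.7 and 46.3 CPM in WT. In both genes every YG8JR library lay above every WT library, and WT replicate 2 lay far below the other WT libraries. Ndufc2 stood at 46.8, 50.9 and 40.8 CPM in YG8JR and at 45.5, 20.2 and 37.0 CPM in WT, and Ndufc1 at 21.4, 26.1 and 24.3 CPM in YG8JR and at 21.6, 12.4 and 26.1 CPM in WT. The groups overlapped in both.

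The marker lists of other cells were read in the same comparison. All 8 microglial markers had positive log2 fold changes (median 1.19, 1 called), with a summed level of 284, 358 and 328 CPM in YG8JR and 134, 62.2 and 196 CPM in WT. All 8 astrocyte markers were positive (median 0.85, 0 called), with sums of 6588, 6997 and 7846 CPM in YG8JR and 4415, 2526 and 4811 CPM in WT. All 14 granule neuron markers were negative (median -0.84, 0 called), with sums of 4172, 750 and 933 CPM in YG8JR and 7982, 8086 and 1292 CPM in WT. Of the other lists, all 11 Purkinje cell markers were positive (median 0.54), with sums of 17687, 1013 and 563 CPM in YG8JR and 9790, 4826 and 858 CPM in WT. All 6 endothelial markers were positive (1.00), with sums of 262, 399 and 301 CPM in YG8JR and 169, 107 and 272 CPM in WT. The 8 oligodendrocyte markers were positive as well (0.65), and so were the 6 of meningeal fibroblasts (1.17), 8 of 12 of the brainstem (1.58), 2 of 8 of the choroid plexus (-0.42) and the 4 Y-linked transcripts (2.27), with 0 called in these lists. Without the library labelled WT replicate 3, 16.9% of all genes were called. The calls were then 7 of 8 each for microglia, astrocytes and oligodendrocytes, 5 of 6 for endothelium and 3 of 6 for meningeal fibroblasts, all higher in YG8JR. For granule neurons they were 2 of 14, lower. Without WT replicate 2 the calls were 2 of 8 for microglia and 0 for the other lists, with 0.144% of all genes called. The part of these markers in the values of the members was not tested.

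**Figure D3:**
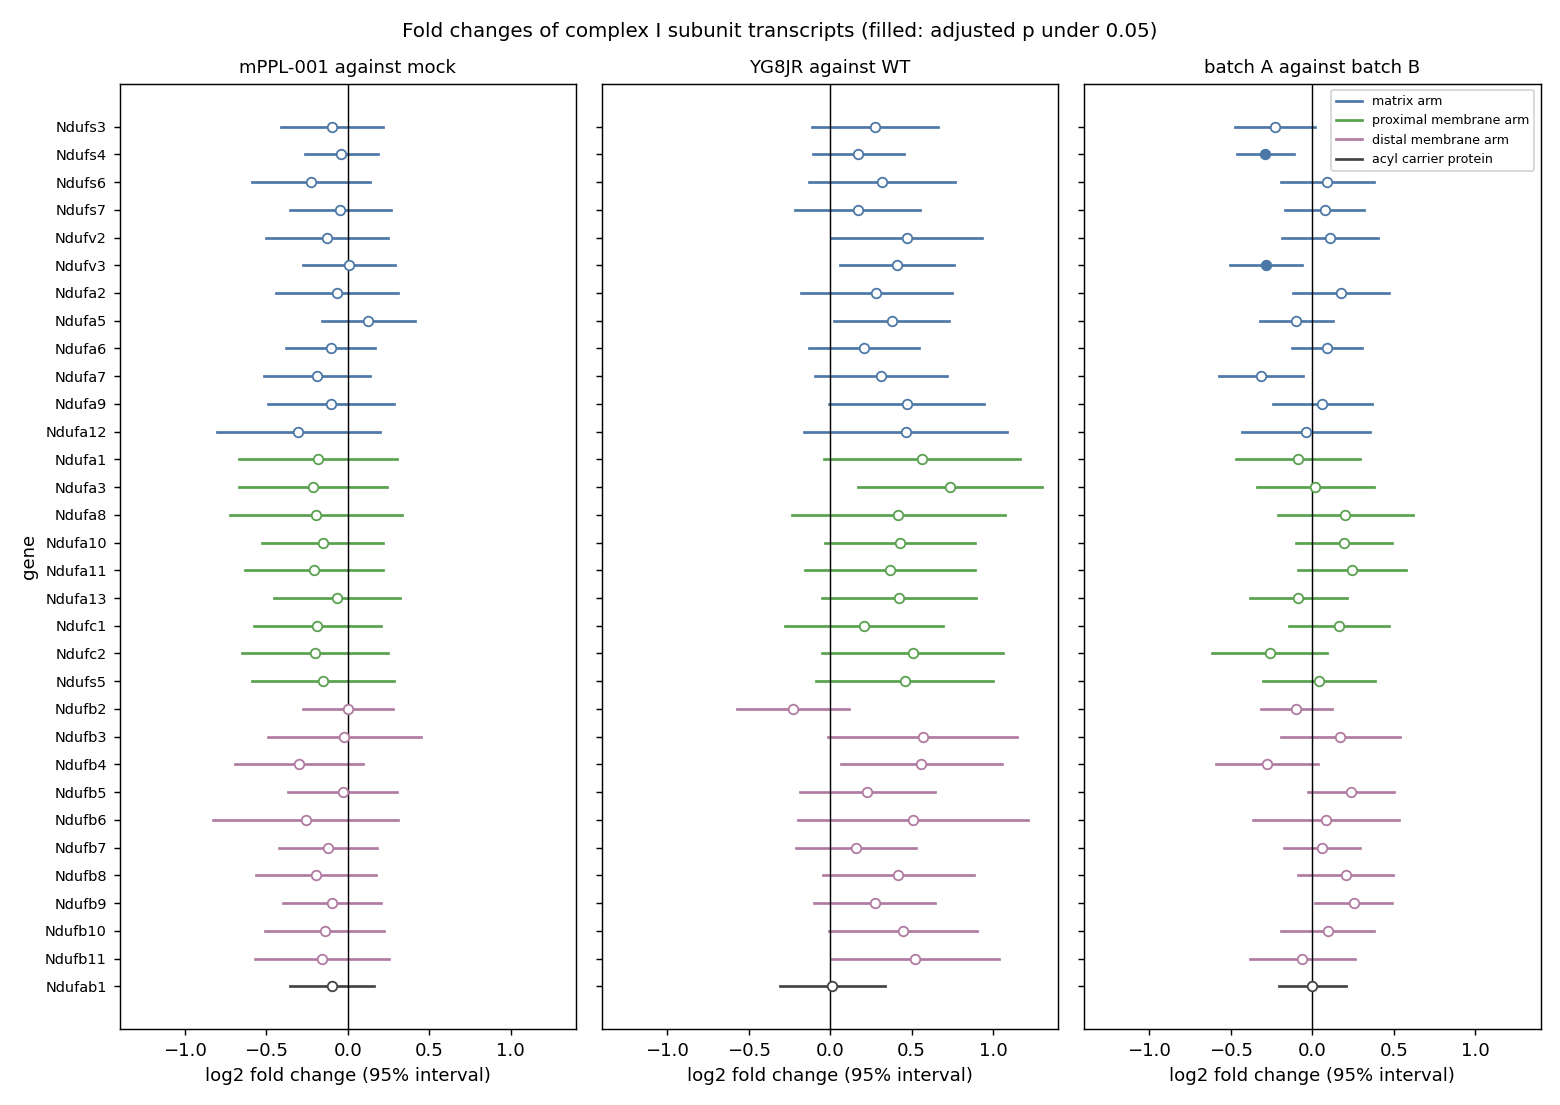
Log2 fold change of each member with its 95% interval for mPPL-001 against mock, YG8JR against WT and batch A against batch B, coloured by arm. Filled points passed the edgeR test, which only Ndufs4 and Ndufv3 between batches did.

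WT replicate 2 stood apart from all other libraries. Its summed member level was 664 CPM, against 1102 and 1128 CPM in WT replicates 1 and 3 and 1035 to 1442 CPM in the 14 other libraries. It was the lowest of all 15 libraries for 29 of 32 members, and its median deviation was -0.97 on the log2 scale, beside -0.12 over all genes. Ndufb6, of the distal arm, was at 3.22 CPM there, against 8.64 to 14.3 CPM in all other libraries. Ndufa8, of the proximal arm, was at 11.7 CPM against 32.5 to 47.3 CPM elsewhere, and Ndufa12 at 16.2 CPM against 32.4 to 58.5 CPM. Ndufb2 and Ndufab1 instead had their highest value of all libraries in it, at 34.9 and 34.1 CPM, against 18.8 to 28.1 CPM and 23.2 to 33.6 CPM elsewhere. These are the members with the most exon sequence. Across the 32 members, the deviation of this library and exon length had a Spearman correlation of 0.64, against -0.48 to 0.24 in the other libraries, a description over genes that share the library.

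The low values of WT replicate 2 were not particular to complex I. Its mean score of 24 cytosolic ribosomal protein genes was -1.02 and that of 39 nuclear genes of complexes II to V was -1.07, the lowest of all libraries, while its 6 nuclear noncoding RNAs scored 0.59. Its Purkinje and granule markers were at or above the median library. Their part in the result was not tested. Without WT replicate 2 the median of YG8JR against WT was 0.22 (31 of 32 positive), with 0 members and 0.144% of all genes called. Within batch A, where WT is the library labelled replicate 3 alone, the median was 0.14, and in batch B, which has a single YG8JR library, it was 0.46, and 0 members and 0% of all genes were called in either. The difference between batches was called for 0 members and 0% of all genes (1 member and 1300 genes with an unadjusted p under 0.05).

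**Figure D4:**
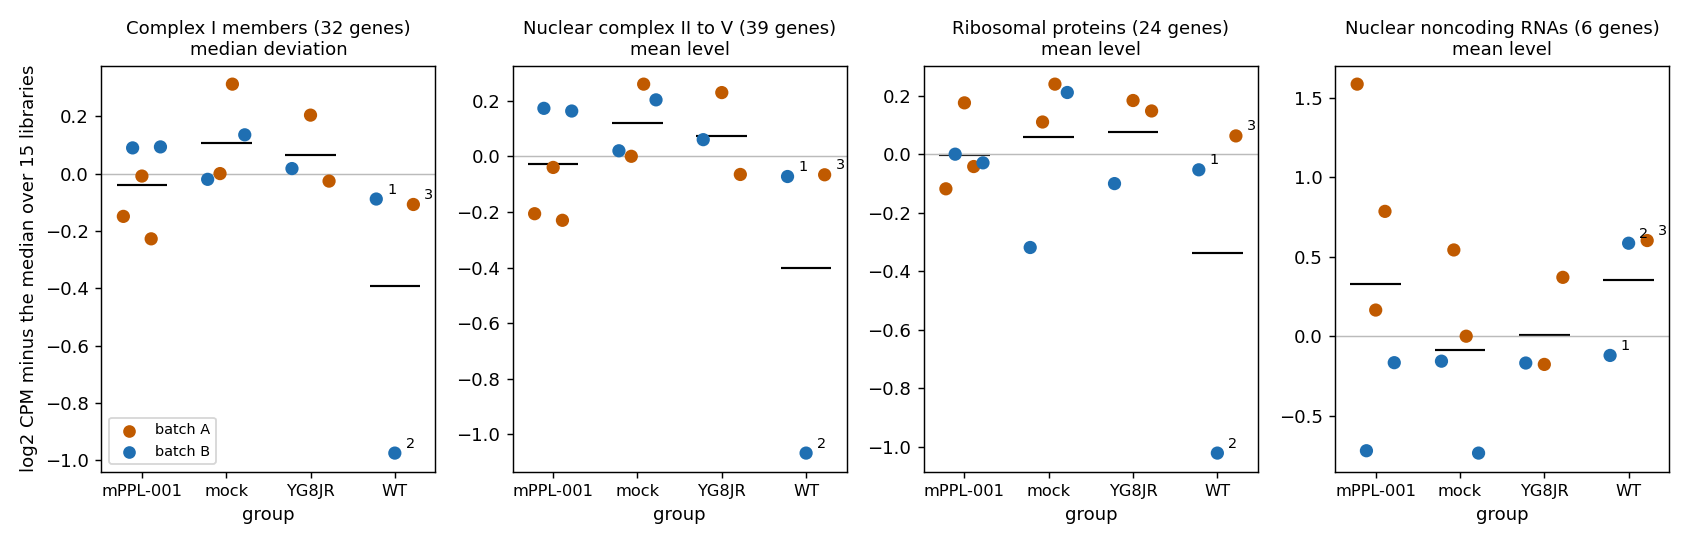
Median deviation of the 32 members and mean scores of 3 other gene lists in each library, in log2 CPM relative to the median over 15 libraries, by group with the group mean as a bar and coloured by batch. WT replicate 2 lies at -0.97, -1.07 and -1.02 in the first 3 panels, below all other libraries.

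Without the library labelled WT replicate 3, 4 members were called higher in YG8JR, with 16.9% of all genes called. They were Ndufa13 (log2 fold change 0.81, edgeR adjusted p = 0.0251), Ndufb3 of the distal arm (0.97), Ndufa3 (1.01) and Ndufa10 (0.74), a proximal-arm subunit that resembles nucleoside kinases. WT was then represented by replicates 1 and 2 of batch B, so that replicate 2 was 1 of 2 libraries. Y-linked transcripts were nearly absent from both, as from YG8JR replicate 3, and their part was not tested. With WT replicate 1 as the only WT library, a setting chosen after seeing the data in which the lone library is assumed to vary like the other groups, the median was 0.23, and 0 members and 0.552% of all genes were called. For Ndufa13 the values were 33.2, 24.7 and 22.5 CPM in YG8JR against 19.5, 14.6 and 26.4 CPM in WT replicates 1 to 3, so that the library labelled WT replicate 3 lay inside the YG8JR range and the other WT libraries below it.

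Transplanted mice were also compared with WT. For mPPL-001 against WT, 0 members were called by edgeR, DESeq2 or voom, against 0.232% of all genes by edgeR, 2.62% by DESeq2 and 2% by voom, and 30 of 32 were positive with a median of 0.31 (0.02 over all genes), or 0.13 with voom. Unadjusted, 7 members (21.9%) had a p under 0.05, beside 15.8% of all genes. With the presence of Y-linked transcripts in the model the median was 0.16, with 29 of 32 positive. The same model gave 0.36 for YG8JR against WT and 0.46 for mock against WT. Ndufa13 had the smallest p, with the mPPL-001 values above and the same WT libraries (log2 fold change 0.66, SE 0.20, edgeR adjusted p = 0.193). Ndufa5, of the ubiquinone-binding part of the matrix arm, stood at 25.8, 29.3, 20.3, 21.3 and 25.4 CPM in mPPL-001 and at 18.2, 17.2 and 19.4 CPM in WT (log2 fold change 0.44, SE 0.15, adjusted p = 0.227), and the groups did not overlap. Ndufv3 stood at 32.6, 45.7, 38.7, 30.9 and 51.5 CPM in mPPL-001 and at 36.8, 28.3 and 29.97 CPM in WT (log2 fold change 0.39, SE 0.15), and the groups overlapped. Without WT replicate 2 the median was 0.06 with 23 of 32 positive, and 0 members and 0.116% of all genes were called. Without the library labelled WT replicate 3, 1 member (Ndufa13, 1.04, adjusted p = 0.0127) and 7.63% of all genes were called. Within batch A the median was -0.04, with 0 members and 0.028% of all genes called. Within batch B it was 0.58, where Ndufa13 was called (1.09, adjusted p = 0.0293) with 6.76% of all genes. Both calls of Ndufa13 rest on WT replicates 1 and 2 alone, so that the outlying replicate 2 was 1 of 2 WT libraries. Y-linked transcripts summed to 222 to 251 CPM over the mPPL-001 libraries, against 0.03 and 0.05 CPM in these WT libraries. Group and Y-linked status therefore cannot be told apart in either call.

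For mock against WT, 0 members were called by edgeR, against 0.412% of all genes, and 30 of 32 were positive with a median of 0.48 (-0.02 over all genes). Unadjusted, 19 members (59.4%) had a p under 0.05, beside 26.1% of all genes, and DESeq2 called 2 members (Ndufa13 and Ndufb4) with 10.6% of all genes and voom 1 (Ndufa13) with 8.96%. The median of the members was 0.31 with voom. Ndufb4 stood at 33.5, 23.4, 30.6 and 37.1 CPM in mock and at 25.1, 13.6 and 17.7 CPM in WT (log2 fold change 0.76, SE 0.21, edgeR adjusted p = 0.0919). Ndufa13 stood at 34.9, 27.5, 39.5 and 31.5 CPM in mock and at 19.5, 14.6 and 26.4 CPM in WT (log2 fold change 0.73, SE 0.21, adjusted p = 0.0939), and these groups did not overlap. Ndufb9 stood at 11.6, 14.3, 18.0 and 12.9 CPM in mock and at 10.2, 7.79 and 11.7 CPM in WT (log2 fold change 0.47, SE 0.16, adjusted p = 0.12), with 11.6 CPM in mock replicate 1 just below 11.7 CPM in the library labelled WT replicate 3. Ndufb2 again ran the other way, at 22.6, 22.3, 20.5 and 22.9 CPM in mock and at 27.1, 34.9 and 25.1 CPM in WT (log2 fold change -0.37, SE 0.15, adjusted p = 0.144), without overlap of the groups. It was -0.22 without WT replicate 2. Without WT replicate 2 the median of the members was 0.26, and 0 members and 0.232% of all genes were called. Without the library labelled WT replicate 3, 6 members were called, all higher in mock, with 19.9% of all genes called. They were Ndufa13, Ndufb3, Ndufa10, Ndufa3, Ndufb4 and Ndufa9, the last a matrix-arm subunit near the ubiquinone site. Within batch A the median was 0.26, with 0 members and 0.024% of all genes called. Within batch B it was 0.56, where Ndufa13 was called (0.96, adjusted p = 0.0315) with 4.37% of all genes. Purkinje cell markers had medians of 1.26 in mPPL-001 against WT and 0.66 in mock against WT (11 of 11 positive and 0 called in each), and endothelial markers 0.96 (0 of 6 called) and 1.14 (2 of 6 called). In the same order, granule neuron markers ran the other way, at -0.42 (11 of 14 negative) and -0.76 (14 of 14), with 0 called. Choroid plexus markers stood at 0.44 (6 of 8 positive) and 2.11 (8 of 8), with 0 called. Microglial markers stood at 0.50 (7 of 8 positive, 0 called) and 0.71 (8 of 8, 1 called). Astrocyte, oligodendrocyte and meningeal fibroblast markers were all positive in both. The part of these lists in the values of the members was not tested. The comparisons with WT share the WT libraries.

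**Figure D5:**
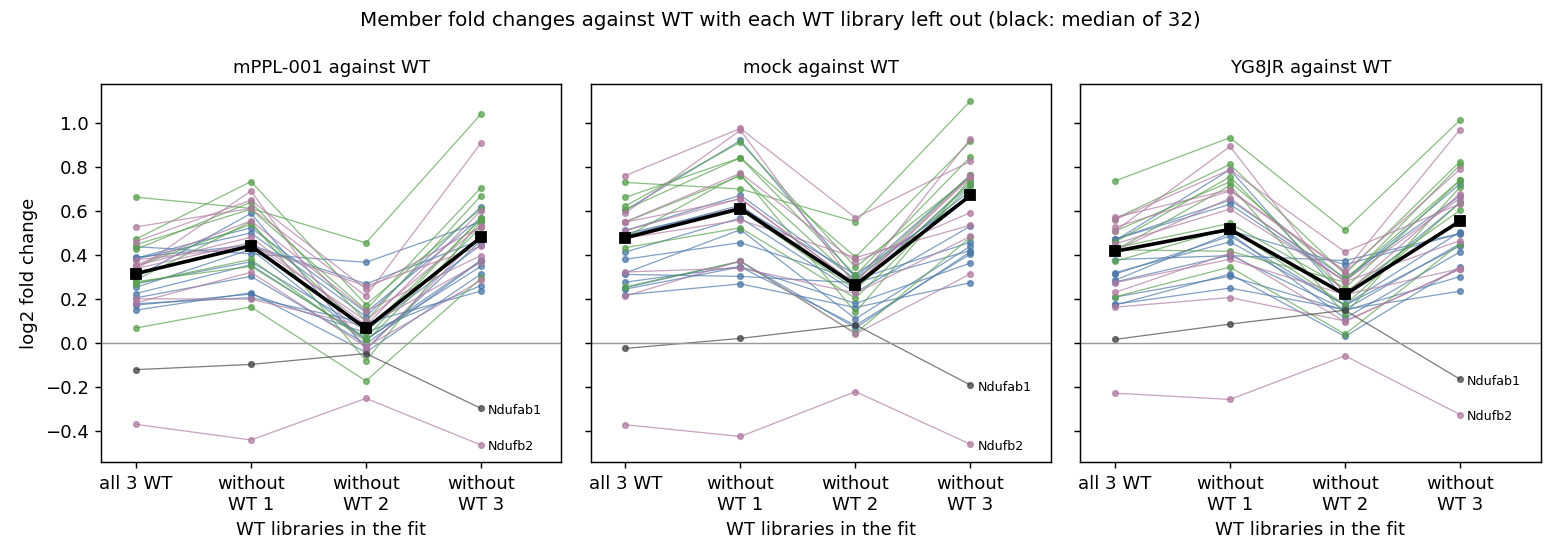
Log2 fold change of each member against WT for mPPL-001, mock and YG8JR, with all 3 WT libraries and without each in turn, coloured by arm as in the plot of levels, with the median of 32 as a black line. Medians are lowest without WT replicate 2 (0.06, 0.26 and 0.22), and Ndufb2 stays below zero throughout.

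Between batches 2 members were called, both lower in batch A and both of the matrix arm, in a fit where 32.9% of all genes were called (3714 higher and 4509 lower in batch A). The share of members called lay below that of all genes. The median of the members was 0.06, with 20 of 32 positive, beside -0.05 over all genes. Its sign depended on the setting. It was -0.13 with a score of brain region in the model (8 positive) and -0.02 with the presence of Y-linked transcripts (12 positive). Without the library labelled WT replicate 3 it was -0.01 (13 positive), and with a stricter filter on low counts 0.14 (22 positive). Ndufs4, whose loss causes a Leigh-like disease in mice and Leigh syndrome in people, had a median of 31.7 CPM in batch A (30.4 to 37.8, n = 8), against 40.2 CPM in batch B (32.4 to 45.9, n = 7; log2 fold change -0.29, SE 0.08, edgeR adjusted p = 0.0142). The lowest library of batch B was WT replicate 2. Ndufv3 had a median of 33.0 CPM in batch A (29.97 to 42.3), against 43.3 CPM in batch B (28.3 to 51.5; log2 fold change -0.29, SE 0.10, adjusted p = 0.0468). Ndufa7, an accessory subunit of the matrix arm, had a median of 28.5 CPM in batch A (25.6 to 34.4), against 35.9 CPM in batch B (21.2 to 47.1), and did not pass (log2 fold change -0.31, SE 0.12, adjusted p = 0.0586). All of these ranges overlapped between batches.

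The call of Ndufs4 ended with RLE normalization (adjusted p = 0.0565, with 31.5% of all genes called), with no filter on low counts (0.179), with the replicate number as a block (0.0714) and without WT replicate 2 (0.0564) or WT replicate 1 (0.051). It held in 13 of 15 fits that each left out 1 library. The call of Ndufv3 held in 3 of these, without mock replicate 3, YG8JR replicate 2 or the library labelled WT replicate 3, with adjusted p from 0.0297 to 0.139 over the 15. It also ended with RLE normalization (0.135), no filter (0.202), a stricter filter (0.0965), the block (0.187) and DESeq2 (0.14). With a score of brain region in the model, the log2 fold change of Ndufs4 was -0.09 and that of Ndufv3 -0.25, and no member and 0% of all genes were called, so that the score left no call to compare. Granule and Purkinje markers moved with this comparison, with medians of -2.54 (14 of 14 called) and -3.48 (11 of 11 called).

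Other complex I genes were described from lists. Ndufs8, a core subunit of the matrix arm that binds iron-sulphur clusters and is not among the 32, stood at 32.5, 38.2 and 32.3 CPM in YG8JR and at 26.8, 13.7 and 32.2 CPM in WT (log2 fold change 0.48, SE 0.24, edgeR adjusted p = 0.221). It was 0.80 without the library labelled WT replicate 3 (adjusted p = 0.0509) and 0.27 without WT replicate 2. Of 18 assembly factors measured 0 were called between groups with all libraries. Between batches, where 32.9% of all genes were called, 2 of the 18 were called higher in batch A and 1 lower. Those higher were Ndufaf5 (log2 fold change 0.33, adjusted p = 0.00579) and Ndufaf2 (0.52, adjusted p = 0.0138). The lower one was Tmem70 (-0.48, adjusted p = 0.00925). Ndufaf5 modifies Ndufs7, and Ndufaf2 holds the place that Ndufa12 later takes. The 7 subunits encoded in mitochondrial DNA had 0 calls in each comparison with all libraries. Their summed level was 10934, 12420 and 9363 CPM in YG8JR and 4931, 3623 and 8461 CPM in WT replicates 1 to 3, with all 7 positive and a median log2 fold change of 0.91. Without the library labelled WT replicate 3 the median was 1.33 and 6 of 7 were called higher in YG8JR, with 16.9% of all genes called. Without WT replicate 2 it was 0.88 with 0 called, and 0.144% of all genes. WT replicate 1, whose nuclear members were near the other libraries (1102 CPM), was the next lowest of all libraries for the mitochondrially encoded subunits, after WT replicate 2. For mPPL-001 against mock their median was 0.20 with 7 of 7 positive, where the nuclear members had -0.13. Their sum was 17681 CPM in mPPL-001 replicate 1, against 9443 to 11415 CPM in the other mPPL-001 libraries and 8490 to 13054 CPM in mock, and without mPPL-001 replicate 1 the median was -0.0004 with 3 of 7 positive.

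Of 13 regulators of mitochondrial biogenesis, 0 were called between groups with all libraries. Between batches, where 32.9% of all genes were called, 1 was called higher and 5 lower in batch A. Gabpa, the DNA-binding subunit of GABP, spanned 25.4 to 35.0 CPM in batch A, against 45.3 to 55.1 CPM in batch B, without overlap (log2 fold change -0.70, SE 0.09, edgeR adjusted p = 4.46e-05), and its partner Gabpb1 stood at -0.48 (adjusted p = 0.000769). Nrf1 was at 24.2, 17.5 and 19.8 CPM in YG8JR and at 35.0, 43.2 and 23.6 CPM in WT (log2 fold change -0.64, SE 0.18, adjusted p = 0.125), opposite in sign to the members. Ppargc1b, a coactivator, stood at -0.71 (adjusted p = 0.121) and Ppargc1a at 0.70 (adjusted p = 0.137) in the same comparison. Without the library labelled WT replicate 3, 3 of the 13 were called higher and 3 lower in YG8JR, with 16.9% of all genes called. Among them were Nrf1 at -0.86 (adjusted p = 0.0132), Ppargc1b at -0.995 (0.00709) and Ppargc1a at 1.07 (0.0196). Without WT replicate 2 they stood at -0.43, -0.41 and 0.52 and none was called.

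The median SD of log2 CPM over the 15 libraries was 0.33 for the 32 members and 0.38 for 17595 genes with a mean of at least 1 CPM, and without WT replicate 2 it was 0.20 for the members and 0.31 for those genes. Without that library the highest was 1.63 times the lowest library at the median member, and 1.3 to 2.1 times over the members. Single values carry a limit of sequence. Of the members 13 share over 10% of their 31-base words with another gene, among them Ndufa13 (33.2% over 3 genes, 28.3% with Tssk6, which overlaps it on the opposite strand), Ndufb6 (34.4%, with Smim27), Ndufb4 (19.1% over 4 genes, Ndufb4c the most) and Ndufa12 (20.7% over 2 genes, 20.2% with Gm15920), and the handling of such reads is not given in the sources used here. Ndufs4, Ndufv2, Ndufa3, Ndufa8 and Ndufc2 share none.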

How the data were processed

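RNA was extracted from flash-frozen cerebellum, depleted of ribosomal RNA and made into stranded, paired-end libraries, per the labels' protocols. The authors deposited raw gene counts, in whole numbers, with a column for each library. STAR and GRCm39 are named in the submitters' processing notes, and no source used here names the counting tool, its annotation or its handling of strand and multiply mapped reads. Symbols came from GENCODE M21 (GRCm38) by identifier, which matched 55141 identifiers (99.4%), and promoters from RefSeq GRCm38.p6. Exon lengths, shared words and overlaps are from the same annotation.

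From the counts, TMM-scaled CPM and the robust quasi-likelihood test of edgeR (version 4.0.16, under R 4.3.3) were computed in 1 model of group and batch over 15 libraries, with a filter (minimum count 10, minimum total 15) that left 24990 genes. Benjamini-Hochberg adjustment was over all of these, with a threshold of 0.05. Standard errors are of log2 fold changes, and the common dispersion was 0.11. Batch differences were tested in a model with a mean for each group in each batch, where some cells hold 1 library. Alternatives included DESeq2 1.42.0 and limma voom (limma 3.58.1) with sample weights. The test was tried on simulated data.

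The members, the other lists, the tests and the naming rule (in each comparison the 3 members with the smallest p, and the highest and lowest per length in each arm) were chosen with earlier results of these data known. Ndufb6, Ndufa8, Ndufb3, Ndufa10 and Ndufa9 are named outside that rule, after their values were seen. The labels do not say that every library is a separate animal, so that p-values measure the spread between these libraries. Same-group libraries were checked for copies, and the smallest chi-square per gene was 21.4, so that none was counted as 1 sample with another. Results for the targeted gene are not reported here.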

Additional observations from a re-analysis of the deposited data

Results flagged for a closer look

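Samples far from the rest of their group or batch were sought for the summed level of the members and for 12 named members, in the mPPL-001 and mock groups and in both batches, which made 52 groups of 4 to 8 libraries. Chance flags about 1 in 20 such groups, and 3 were found. The summed level of the members in WT replicate 2 was 664 CPM, against 1102 to 1340 CPM in the other libraries of batch B. Ndufa12 stood at 16.2 CPM in WT replicate 2, against 41.7 to 58.5 CPM in the other libraries of batch B. Ndufb9 stood at 16.5 CPM in mPPL-001 replicate 1, against 12.1 to 13.1 CPM in the other mPPL-001 libraries. Groups of 3 libraries were not examined in this way.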

How the results depend on the processing

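Over the alternatives, 165 counts of members called stayed within 1.5 times and 23 did not. For every comparison between groups the count as described was 0, so staying there means only that 0 were called again. Of the medians, 185 stayed within the spread between libraries (0.26) and 3 did not. That spread includes WT replicate 2 and is wide beside most medians, so staying within it does not show a stable value. The fall from 0.31 to 0.06 for mPPL-001 against WT without WT replicate 2 counted as within it. So did the turn from -0.13 to 0.06 for mPPL-001 against mock within batch B. Counts of members called follow, with all genes called in brackets, of 24990 tested unless given. Between batch A and batch B, 2 were called with all settings as described (8223) and 1 with RLE normalization (7864). That 1 was Ndufb9, higher in batch A, with Ndufs4 and Ndufv3 both lost. With no low-count filter (7158 of 42615), the replicate block (5136) or the region score (0), 0 were called. Voom called 6 (10062), and fits with a library left out called 0 to 3 (6712 to 8729). The stricter filter called 2 higher and 1 lower in batch A (7237 of 18103). For mock against WT, 2 were called with no low-count filter (777 of 42615) and with DESeq2 (2648). There, 1 was called with voom (2240), 1 within batch B (1091), and 0 to 6 with a library left out (39 to 4969). For mPPL-001 against WT it was 1 within batch B (1689) and 0 to 1 with a library left out (26 to 1907). For YG8JR against WT it was 0 to 4 with a library left out (0 to 4221). Medians moved by more than the spread between libraries within batch A for YG8JR against WT (0.14) and mPPL-001 against WT (-0.041), and within batch B for mPPL-001 against WT (0.58). Within batch B the sign turned for Ndufs6 in mPPL-001 against mock (0.0065), Ndufa3 in mPPL-001 against YG8JR (0.0050) and Ndufa13 in mock against YG8JR (-0.0026), and the cause was not tested. Over all members 24, 20 and 8 of 32 signs turned there in those comparisons. Batch B holds only 1 YG8JR library. All genes called ranged over the alternatives from 0 to 4221 for YG8JR against WT (36 as described), 7 to 1907 for mPPL-001 against WT (58), 6 to 4969 for mock against WT (103), 5 to 22 for mPPL-001 against YG8JR (8), 5 to 15 for mock against YG8JR (9), 0 to 10062 for the batches (8223) and 0 throughout for mPPL-001 against mock. Same-numbered libraries of different groups had correlations of both signs (19 pairs, r from -0.57 to 0.44, median -0.09, 6 over 0.1). Pairs with different numbers were not set beside them, so the check cannot show whether the number carries anything. The replicate block, which ended both calls between batches, rests on that number. With DESeq2 the 2 calls between batches were Ndufs4, lower, and Ndufb9, higher, and with the region score no gene at all was called. Levels per kilobase moved with the length used for 6 of 7 named members. The fit with WT replicate 1 alone was chosen after seeing the data. Libraries of 16847875 to 38760543 counts gave every member at least 64 counts.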
